A study of Nematostella vectensis with 123 samples.

Results

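This report describes 175 transcript models of the starlet sea anemone Nematostella vectensis whose RNA was at or near 0 up to 18 h of label time, was present from 18 to 24 h, and was still present at 42 to 48 h. They were taken from 40499 models counted in 123 single whole embryos. A model entered when its median level was at most 2 CPM (counts scaled to 1000000 model counts per embryo) in each of the bins 0 to 6, 6 to 12 and 12 to 18 h, at least 10 CPM at 18 to 24 h, and at 42 to 48 h at least 50 percent of its 18 to 24 h level. Those medians came from embryos 1 to 73 with 50000 or more model counts, without embryo 27, and the members were chosen by these values, so they are given as a description with no test. The rule allowed up to 200 models, and all 175 that passed were taken.

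Embryos were picked at the 4-cell stage, kept at 20 °C, and frozen singly for CEL-Seq. That method barcodes each embryo's RNA and counts the 3′ ends of polyadenylated transcripts. The labels give a time point per embryo and no strain, genotype or treatment. The numbers carry no unit and were read as minutes, because the protocol collected every 20 min, and they run to 72 h although the protocol names 48 h. Time groups of 6 h held 10, 9, 8, 8, 9, 9, 9 and 9 embryos from 0 to 48 h among embryos 1 to 73. Embryos 74 to 123 held 4 at 39 to 42 h, then 8, 9, 9, 9 and 10 in the bins from 42 to 72 h. Embryo 50, labelled 20 min before time 0, was in the earliest bin. The labels do not say whether embryos shared a clutch, and every p-value below rests on the spread among them alone.

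Gastrulation is the movement that turns the hollow, single-layered blastula into an embryo with an outer ectoderm and an inner endoderm. In Nematostella the gastrula then becomes a ciliated, swimming planula larva, in which nerve cells, stinging cells and gland cells differentiate. Transcripts first seen at gastrulation may come from the embryo's own genome. A count of polyadenylated RNA does not by itself tell these from RNA laid down in the egg. The labels give no stage for the embryos of 18 to 24 h, and the files pair no model with a gene name. None of the 40499 identifiers matched a reference table of 38762 genes, so no marker could check the stage, members have no known role here, and they are given by identifier.

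The 120 embryos used had 58680 to 2646585 model counts, with a median of 835502. At that median, 3 counts equal 3.59 CPM, which is above the 2 CPM limit, so a median of 0 limits a model's level rather than showing that it was absent. Embryos 10 and 111 fell under the count minimum. Levels are not scaled by transcript length, since each molecule is counted at its 3′ end and model lengths were not used here. All values come from whole embryos, so fewer cells of a type and less RNA per cell cannot be told apart.

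The members were mostly scarce at the switch. Their median at 18 to 24 h was 17.5 CPM. Of the 175, 102 had a level of 10 to under 20 CPM there, 59 had 20 to under 50 CPM, and 14 had 50 CPM or more, of which 5 reached 100 CPM. In 124 members the medians of all earlier bins were 0, and 44 had a median above 0 at 12 to 18 h. Just inside the limit lay Nv.T1.63571.2377 at 10.01 CPM and Nv.T1.9909.1 at 10.03 CPM. Just outside lay Nv.T1.23809.1 at 9.97 CPM and Nv.T1.63571.3385 at 9.94 CPM. A further 255 models had 5 to under 10 CPM at 18 to 24 h and met the other limits, so the list has no natural edge. Another 51 models met the early limits and the 18 to 24 h limit but were under 50 percent of that level at 42 to 48 h.

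A rise of the members between the bins before and after 18 h is required by the rule, so it is no separate result. The levels of single embryos around that time are given as a description. The summed level of the members lay between 58.9 and 251 CPM in all embryos before 12 h. It was 1262 CPM in embryo 25 (15.3 h), 677 CPM in embryo 26 (16.0 h) and 1166 CPM in embryo 28 (17.7 h). In these 3 embryos 29, 16 and 37 members had reached 50 percent of their 18 to 24 h median. They had a count for 58, 134 and 138 members, at depths of 240961, 1341689 and 766545 model counts. The highest member was a different one in each: Nv.T1.12622.2 at 116 CPM in embryo 25, Nv.T1.10698.1 at 46.2 CPM in embryo 26 and Nv.T1.62851.1 at 45.7 CPM in embryo 28. Embryo 29, at 18.7 h, had 4005 CPM, with 143 of 175 members at 50 percent or more and a count for 174. Each of these times rests on a single embryo.

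**Figure D1:**
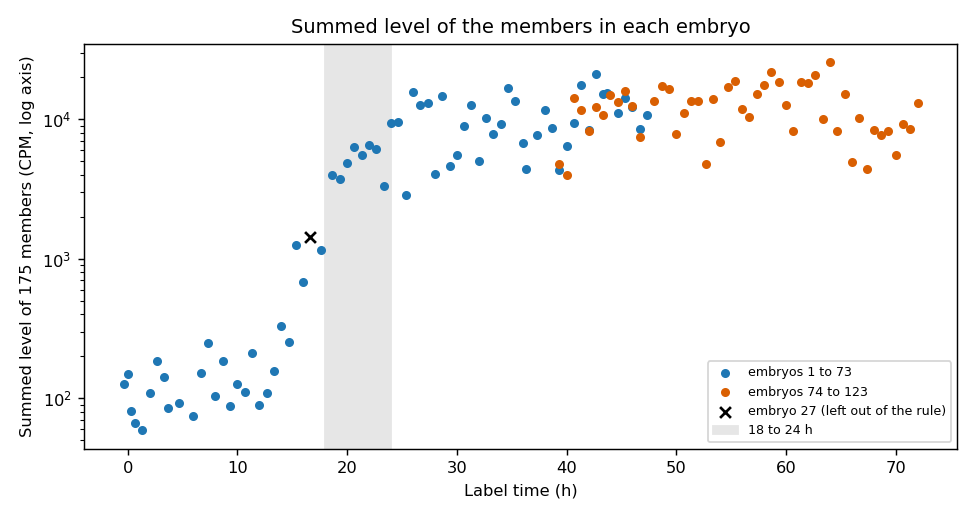
Summed level of the 175 members (CPM, log axis) against label time in hours, 1 point per embryo, with embryos 1 to 73 in blue and 74 to 123 in orange. All embryos before 12 h lie at or under 251 CPM, and all embryos from 18.7 h on lie at or above 2849 CPM. The rule itself requires a rise at 18 h.

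Embryo 27, which the rule left out, lay in this interval at 16.7 h. It had a summed member level of 1433 CPM from 56536 model counts, with a count for 30 members, and 24 of them were at 50 percent or more of their 18 to 24 h median. A single count in it equals 17.7 CPM, as large as the members' median level, and it had 0.25 model counts per spike-in count. The part of depth in its count of members reached was not tested. Within 18 to 24 h the embryos were not alike. Embryo 34 had the highest sum, 6534 CPM, with 165 members at 50 percent or more. Embryo 36 had the lowest, 3327 CPM, with 98 members at 50 percent or more, although it is the oldest of the bin at 23.3 h and had 1402882 counts.

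In samples the rule did not use, most members stayed at or above 50 percent of their 18 to 24 h level. At 24 to 30 h 165 of 175 did so, at 30 to 36 h 164, and at 36 to 42 h 149. The median ratio to the 18 to 24 h level was 1.36, 1.36 and 1.03 in those bins. Embryos 74 to 123 were wholly outside the rule, and in them 136 members were at 50 percent or more at 39 to 42 h, 155 at 42 to 48 h, 157 at 48 to 54 h, 155 at 54 to 60 h and 151 at 60 to 66 h. The count was lowest at 66 to 72 h, where it was 125 and the median ratio was 0.84. Membership itself required presence at 18 to 24 h and at 42 to 48 h in embryos 1 to 73, so these counts describe the interval between and the other embryos, and they were not tested. Each ratio is also taken to the 18 to 24 h level that the rule used.

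The summed level followed the same course. At 24 to 30 h the lowest, median and highest embryos had 2849, 9538 and 15825 CPM, or 0.95 percent of model counts at the median. At 30 to 36 h they had 5032, 9232 and 16657 CPM, and at 36 to 42 h 4333, 7751 and 17669 CPM. The 3 bins overlapped over most of their range. Among embryos 74 to 123 the median was 17149 CPM at 54 to 60 h and was 8297 CPM at 66 to 72 h, where embryos ranged from 4427 to 13202 CPM. The shallowest embryo used, with 58680 counts, is in that last bin. Embryos 96 and 101, with 69854 and 120029 counts, are at 54 to 60 h. The median of model counts per spike-in count was 9.57 at 66 to 72 h against 16.7 at 54 to 60 h. The part of depth and RNA content in the lower level was not tested.

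**Figure D2:**
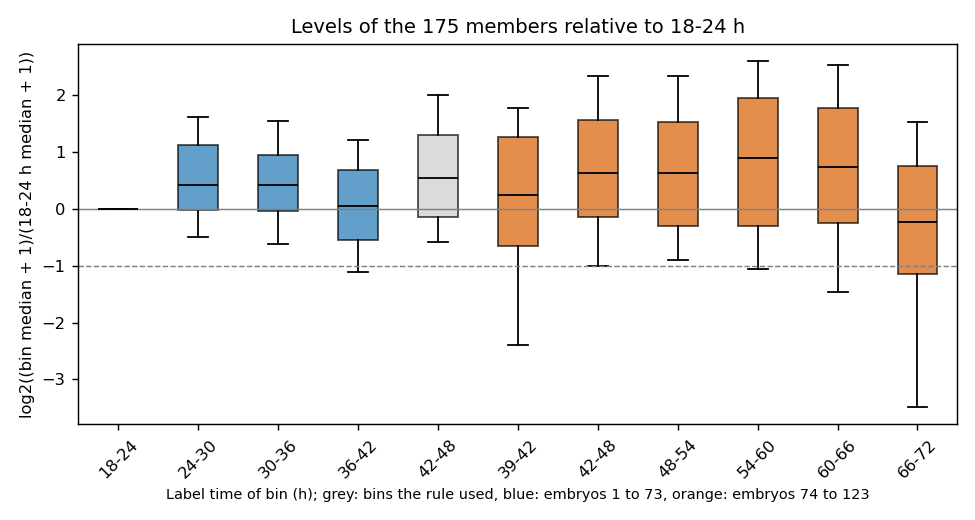
Ratio of each member's bin median to its 18 to 24 h median, on a log2 scale after adding 1 CPM, by bin of label time. Boxes give the quartiles with the median and whiskers the 10th to 90th percentiles over 175 members; grey bins chose the members. The dashed line marks the level one log2 unit below 18 to 24 h, and the box of 66 to 72 h reaches lowest.

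The 51 models of the same start that were not sustained are given in the same bins and embryos. Their ratios too are taken to the 18 to 24 h level that chose them, so they are not independent of the choice. At 24 to 30 h 38 of the 51 were at 50 percent or more of their 18 to 24 h level, at 30 to 36 h 27, and at 36 to 42 h 12. In embryos 74 to 123 the count was 20 of 51 at 42 to 48 h and 5 at 66 to 72 h, against 155 and 125 of 175 members. The 287 models that passed the same limits one bin earlier, starting at 12 to 18 h, had 257 at 50 percent or more of their starting level at 36 to 42 h and 208 at 66 to 72 h. Both lists were split on levels of embryos 1 to 73, so the contrast between them was not tested.

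The member with the highest 18 to 24 h level was Nv.T1.62851.1. It had a count in 3 of the 8 embryos of 12 to 18 h and in every embryo after that. From 18 to 24 h its lowest, median and highest levels were 62.1, 225 and 451 CPM. From 24 to 30 h they were 111, 346 and 1602 CPM, from 30 to 36 h 87.9, 908 and 2108 CPM, and from 36 to 42 h 85.2, 562 and 1279 CPM. Every one of these bins overlapped the next, since single embryos near 100 CPM occurred up to 42 h. Embryos 74 to 123 had a median of 888 CPM at 42 to 48 h and 238 CPM at 66 to 72 h. Its fitted slope from 24 to 42 h was 0.61 ± 0.54 (SE) log2 units per 12 h over 27 embryos and was not significant (edgeR adjusted p = 0.53).

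Nv.T1.24227.1 was next, with 82.9, 197 and 266 CPM as lowest, median and highest at 18 to 24 h. Its medians afterwards were 249, 501 and 810 CPM in the bins to 42 h. The spread within bins was wide: at 24 to 30 h it was 14.8 CPM in embryo 39 and 2161 CPM in embryo 44. Its slope of 1.22 ± 0.59 log2 units per 12 h was not significant (edgeR adjusted p = 0.22). In embryos 74 to 123 it stayed between medians of 494 and 1034 CPM, and embryo 122 had no count for it, which at its depth allows up to 14.5 CPM.

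Nv.T1.34533.1 and Nv.T1.34532.1 followed at 171 and 168 CPM. Nv.T1.34533.1 had medians of 225, 157 and 71.3 CPM in the bins to 42 h, and Nv.T1.34532.1 had 256, 130 and 96.6 CPM. Neither slope was significant, at -0.80 ± 0.47 and -0.74 ± 0.46 log2 units per 12 h (edgeR adjusted p = 0.33 and 0.36). The 2 models are counted almost identically, with 17621 and 17588 counts over all embryos used. Their split between embryos differed by no more than sampling noise (chi-square per degree of freedom 0.95 over 102 embryos), so they are not independent observations.

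**Figure D3:**
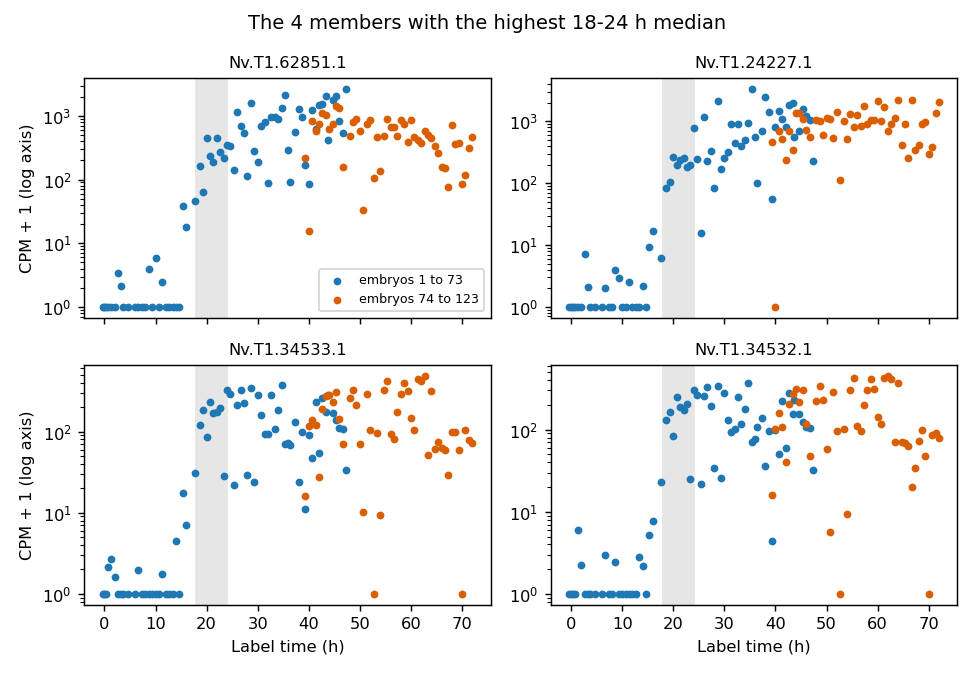
Level of the 4 members with the highest 18 to 24 h median (CPM + 1, log axis) against label time in hours, 1 point per embryo, with 18 to 24 h shaded. Of the upper pair, Nv.T1.62851.1 has bin medians of at most 888 CPM in embryos 74 to 123. In the last bin, to 72 h, its median is 238 CPM, near its 225 CPM at 18 to 24 h. Nv.T1.24227.1 has bin medians of 494 to 1034 CPM in embryos 74 to 123. In embryo 122 Nv.T1.62851.1 is at 14.5 CPM and Nv.T1.24227.1 has no count. The lower pair, Nv.T1.34533.1 and Nv.T1.34532.1, have nearly the same pattern of points as each other.

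From bin to bin after the switch, members were called at about the share of all models. A change was called at a Benjamini-Hochberg adjusted p under 0.05 over all models tested and a log2 change of at least 1, by edgeR's quasi-likelihood test. From 24 to 30 h to 30 to 36 h, 161 members had enough counts to be tested and 1 was called, higher, where 0.599 percent of all 12689 models tested were called, 0.449 percent higher and 0.15 percent lower. It was Nv.T1.12622.2, with lowest, median and highest levels of 12.8, 37.2 and 61.7 CPM in the earlier 9 embryos and 41.8, 90.0 and 165 CPM in the later 9. The bins overlapped, and the log2 change was 1.48 ± 0.32 (SE, edgeR adjusted p = 0.032). That call was lost with 500000 counts required per embryo (edgeR adjusted p = 0.055), with spike-in scaling (0.47) and in 8 of 18 fits without 1 embryo (39, 40, 41, 42, 46, 52, 53 or 55). Without embryo 45, 3 of 165 members were called, beside 129 of all 13071 models. Without embryo 49, 2 of 166 were called, beside 128 of all 13095 models. From 30 to 36 h to 36 to 42 h, 133 members were tested and 0 were called, as were 0 percent of all 10320 models. By edgeR 2 members had an unadjusted p under 0.05 in that step, which was not counted over all models. DESeq2 called 0 members, beside 0.22 percent of all models.

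Over the whole interval from 24 to 42 h, 166 members were tested for a linear trend over 27 embryos. All 4 that passed rose and 0 fell, where 4.06 percent of all 12852 models were called, 2.77 percent higher and 1.29 percent lower. The members' share was 2.41 percent. Fitted slopes of the members had a median of 0.03 log2 units per 12 h, with quartiles of -0.37 and 0.43, beside a median of 0.004 and quartiles of -0.35 and 0.40 over all models. With spike-in scaling both medians moved down, to -0.54 for the members and -0.58 for all models. Calls then turned over, to 102 higher and 736 lower among all models and to 1 higher and 2 lower among members, so slopes are relative to the bulk of the embryo's RNA.

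Among those that rose, Nv.T1.22135.1 had the steepest slope. Its levels were 0, 2.64 and 80.1 CPM as lowest, median and highest at 24 to 30 h, 7.71, 13.5 and 33.4 CPM at 30 to 36 h, and 0, 33.3 and 132 CPM at 36 to 42 h. The bins overlapped fully, and the slope was 2.60 ± 0.75 log2 units per 12 h (edgeR adjusted p = 0.036). Nv.T1.12622.2 had 97.0 CPM at the median of 36 to 42 h, and its slope was 1.60 ± 0.37 (edgeR adjusted p = 0.0092). Nv.T1.65339.1, which also had the highest ratio of the 36 to 42 h to the 18 to 24 h median, rose with a slope of 1.57 ± 0.43 (edgeR adjusted p = 0.028), from medians of 22.8 to 86.2 and 70.0 CPM. The remaining one, Nv.T1.56965.1, was named after its values were seen and had medians of 29.5, 50.1 and 50.7 CPM with a slope of 1.54 ± 0.39 (edgeR adjusted p = 0.016).

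These calls changed with single embryos and with the scaling. Without embryo 61, 1 of 169 members was called, Nv.T1.12622.2, beside 418 of all 13692 models. Without embryo 64, 10 of 167 members were called, 6 higher and 4 lower, beside 960 of all 13241 models. The fits without embryo 37, 38 or 40 called 2 of 169, 2 of 170 and 2 of 168 members. Over all models they called 349 of 13219, 393 of 13232 and 382 of 13208. The steepest call, Nv.T1.22135.1, was lost in 9 of 27 fits without 1 embryo (37 to 42, 59, 61 or 62), and Nv.T1.65339.1 in 5 (37, 38, 40, 61 or 63). With spike-in scaling Nv.T1.12622.2, Nv.T1.56965.1 and Nv.T1.65339.1 were not called (edgeR adjusted p = 0.12, 0.24 and 0.14), and with 500000 counts required only Nv.T1.12622.2 was.

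**Figure D4:**
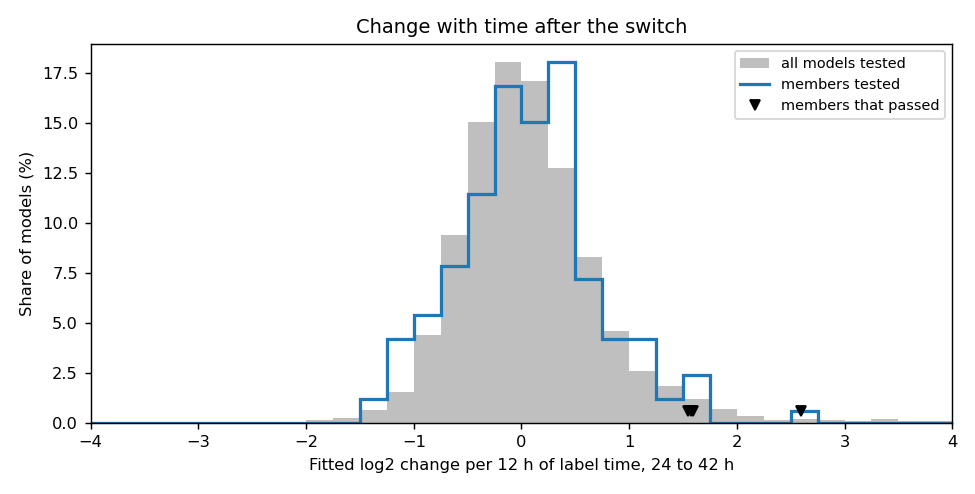
Share of models (percent) by fitted log2 change per 12 h of label time from 24 to 42 h, for the 166 members tested (blue line) and all 12852 models tested (grey). Triangles mark the 4 members that passed, all above 1.5; the centres of both distributions lie near 0.

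At the other end, Nv.T1.2286.1 and Nv.T1.39350.1 had the lowest ratios of the 36 to 42 h to the 18 to 24 h median. Nv.T1.2286.1 had a median of 31.0 CPM at 18 to 24 h, 31.8 CPM at 24 to 30 h, 16.7 CPM at 30 to 36 h and 4.03 CPM at 36 to 42 h. Its slope of -1.04 ± 0.54 was not significant (edgeR adjusted p = 0.26). Without embryo 64, where it was 42.7 CPM and the next embryo of the bin had 13.0 CPM, the slope was -2.10 ± 0.58 and passed (edgeR adjusted p = 0.021). Nv.T1.39350.1 had 14.9 CPM at 18 to 24 h and 4.90, 6.34 and 2.16 CPM in the later bins to 42 h. In embryos 74 to 123 it had a count in 3 of 9 embryos at 60 to 66 h. Nv.T1.8370.2, with the second highest ratio, had 11.5 CPM at 18 to 24 h and 26.1, 30.9 and 51.4 CPM later, and its slope of 0.86 ± 0.35 did not pass (edgeR adjusted p = 0.14).

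In embryos 74 to 123, 170 members were tested for a linear trend from 39 to 72 h over 49 embryos. None passed by edgeR, where 0.17 percent of 13556 models were called (0.111 percent higher and 0.059 percent lower). DESeq2 also called 0 members, beside 1.24 percent of all models. By edgeR 17 members had an unadjusted p under 0.05, which was not counted over all models. With 500000 counts required per embryo 8 of 173 members were called, or 4.62 percent, 2 higher and 6 lower. Over all 15231 models tested in that fit 99 were called, or 0.65 percent, 65 higher and 34 lower. The members included Nv.T1.12622.2 with 1.61 ± 0.42 and Nv.T1.62851.1 with -1.18 ± 0.26 log2 units per 24 h (edgeR adjusted p = 0.047 and 0.015). The 2 higher were Nv.T1.12622.1 and Nv.T1.12622.2, models of 1 stem. The 6 lower held a pair whose counts differed by no more than sampling noise and 3 models of the stem Nv.T1.63571. The 8 members are therefore not 8 independent calls, and the share of 4.62 percent counts each of them.

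The blocks of embryo numbers could be compared at 4 equal label times from 39.3 to 41.3 h, with 1 embryo of each block per time. The summed member level was 4333 CPM in embryo 61 and 4763 CPM in embryo 123 at 39.3 h, 6405 and 3970 CPM at 40.0 h, 9350 and 14295 CPM at 40.7 h, and 17669 and 11712 CPM at 41.3 h. In CPM neither block was higher in all 4 pairs. Model counts per spike-in count were higher in embryos 120 to 123 in all 4, at 4.61 against 1.70, 5.42 against 4.98, 19.8 against 4.63 and 11.2 against 7.75. The median log2 difference of the members tested was -0.06 as fitted and 1.17 with spike-in scaling, beside -0.27 and 0.96 over all models. Of 122 members tested 5 had an unadjusted edgeR p under 0.05, which was not counted over all models. None of the 122 was called, as were 0 percent of 9879 models. With 4 pairs this does not show that the blocks have equal levels. DESeq2 called 1 member, Nv.T1.10698.1, higher in embryos 74 to 123 by 3.81 ± 0.84 log2 units (DESeq2 adjusted p = 0.0049). That is 0.82 percent of the members tested, beside 0.79 percent of all models, of which 16 were higher and 62 lower.

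Members spread widely between embryos of the same bin. Among those with a mean of at least 10 CPM, the median coefficient of variation was 0.69 at 24 to 30 h, 0.67 at 30 to 36 h and 0.81 at 36 to 42 h. Over all models of that level it was 0.44, 0.49 and 0.53. Embryos within a bin differ in age, and members were not matched to all models by level. The part of age or level in these figures was not tested. Across the medians of the 3 bins, 93 of 175 members, or 53.1 percent, ranged by under 1 log2 unit. Of 13473 models with 10 CPM or more in at least 1 of the bins, 76.3 percent did. That limit was not applied to the members.

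Part of the members varied together. Over the 27 embryos of 24 to 42 h, a member's log2(CPM + 1) correlated with the sum of the other members at a median Pearson's r of 0.50. For 38 members r was at least 0.7, and for 17 it was below 0. Between single members the median pairwise r was 0.22, and 3820 of 15225 pairs were below 0. These are descriptions over embryos that share depth and RNA content, and the same values were not computed for other models. At 24 to 30 h the low embryos were 39, 43 and 45, with 2849, 4066 and 4660 CPM, while the other 6 had 9379 CPM or more. Embryos 39, 43 and 45 had 3.45, 3.29 and 3.24 model counts per spike-in count, and the other 6 had 6.17 or more. At 36 to 42 h embryo 61 was lowest with 4333 CPM and 1.70 model counts per spike-in count. The part of embryo RNA content or depth in this spread was not tested.

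The largest group of members that varied together had 16 members. It was formed after the levels were seen, by linking members with a pairwise r of at least 0.9, so it is a description, and its pairs had an r from 0.66 to 0.98. It includes Nv.T1.9257.3 and Nv.T1.2885.1, with 18 to 24 h medians of 115 and 84.5 CPM and 24 to 30 h medians of 425 and 445 CPM. Its summed level was 174, 182 and 283 CPM in embryos 39, 43 and 45, and 1847 to 4438 CPM in the other 6 embryos of 24 to 30 h. At 36 to 42 h it was 64.1 CPM in embryo 61 and 6341 CPM in embryo 64. The remaining 159 members had a summed level of 4269 CPM in embryo 61 and 11327 CPM in embryo 64.

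**Figure D5:**
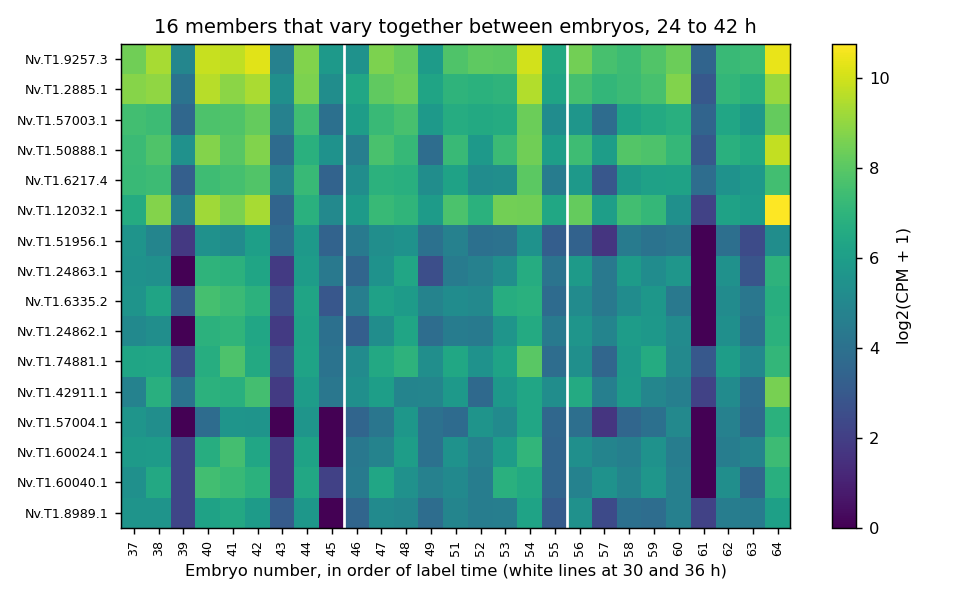
Level of 16 members (rows, log2(CPM + 1)) in the 27 embryos of 24 to 42 h (columns, in order of label time). Embryos 39, 43, 45 and 61 are dark in nearly all rows, with summed levels of 174, 182, 283 and 64.1 CPM, and embryo 64 is bright with 6341 CPM.

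The 4 members that rose from 24 to 42 h did not share that pattern. Their r with the rest of the members was -0.50 for Nv.T1.22135.1 and -0.30 for Nv.T1.12622.2. It was close to 0 for Nv.T1.65339.1 (-0.09) and Nv.T1.56965.1 (-0.01). The summed level of these 4 members was highest in embryo 61, at 813 CPM, and was 174 CPM in embryo 64. Embryo 61 had 296562 counts, the fewest of the 27, and without it 1 of the 4 was called, as given above.

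In all, 50 of 15225 member pairs had an r of at least 0.9, and they joined 50 members into 15 groups. If each group counts once, the 175 members are 140 units. In 19 of those pairs, covering 32 members, total counts lay within 1.1-fold and the split between embryos had a chi-square per degree of freedom of at most 1.5. Nv.T1.24864.1 and Nv.T1.24865.1, for example, had 9077 and 9083 counts and a value of 0.72. Several such pairs have consecutive identifier numbers. Whether the models of such a pair share a gene, a transcript or reads is not given in the sources used here, so counts of members may include a transcript more than once.

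The models whose pattern over 24 to 42 h was most like that of Nv.T1.62851.1 were all members too. Among 22872 models searched over 27 embryos, Nv.T1.47274.1 had r = 0.89, Nv.T1.12573.1 0.87 and Nv.T1.63571.9311 0.86. Their medians at 18 to 24 h were 28.3, 33.3 and 29.4 CPM, and at 30 to 36 h 122, 141 and 118 CPM. None of them passed the trend test from 24 to 42 h (edgeR adjusted p = 0.75, 0.37 and 0.72).

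Identifiers have a stem and a model number. The 175 members had 161 stems, of which 145 held a single model, or 90.1 percent, beside 93.5 percent of all 33279 stems. Of the 16 stems with several models, 4 held models outside the list of 10 CPM or more before 18 h, and in 3 every model was a member. In 6 of the remaining 13 no model outside the list reached 10 CPM in any bin of embryos 1 to 73. The stem Nv.T1.63571, with 3153 models, held 12 members. Counts are uncertain where models overlap or are close copies of each other.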

How the data were processed

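For each embryo the authors deposited raw counts (whole numbers, not normalized) of 40499 models, 92 synthetic ERCC spike-in RNAs and 5 classes of unassigned reads. The submitters' processing notes list Bowtie2 2.1.0, HTSeq 0.5.4p3 and CASAVA 1.8 without their roles. The genome build and annotation are not given in the sources used here. Per the labels' protocols, libraries received DSN, a nuclease that lowers the share of abundant molecules and so may compress high levels. Spike-ins and unassigned rows stayed out of library sizes. CPM and bin medians were computed from the counts.

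Tests used edgeR 4.0.16 (TMM scaling, filterByExpr, quasi-likelihood F test) in R 4.3.3 on all models, with DESeq2 1.42.0 as an alternative, and were tested on simulated data. Counts were kept for embryos with 50000 or more model counts. Trends are per 12 h (24 to 42 h) or 24 h (39 to 72 h). A count of 0 allows up to 3 counts, which covers counting error only.

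The members, lists and tests were chosen with earlier results of these data known. The text names the 4 members highest at 18 to 24 h, 2 models on each side of the 10 CPM limit, up to 2 called members per direction and test, 2 members at each end of the ratio of the 36 to 42 h to the 18 to 24 h median, and the 3 models most like the top member. Embryo 27 and the grouping by correlation (r of at least 0.9, totals within 1.1-fold, chi-square per degree of freedom up to 1.5) were examined after seeing the data. Alternatives were other scalings, filters, tests, count minimums and left-out embryos.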

Additional observations from a re-analysis of the deposited data

Results flagged for a closer look

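Single embryos far from the rest of their bin were looked for in 149 groups of 4 to 10 embryos. The groups covered the summed member level and most members named above, but not the models just outside the 10 CPM limit. Dixon's 95 percent criterion flagged 19. Its rate of 1 in 20 groups by chance assumes normally distributed values, and it was applied to CPM without a log scale. The 19 are therefore not set against that rate. All 19 were high values. Nv.T1.24227.1 was 3287 CPM in embryo 55 at 30 to 36 h, where the next embryo had 936 CPM. Nv.T1.63571.2377 was 24.3 CPM in embryo 62 at 36 to 42 h and 91.6 CPM in embryo 101 at 54 to 60 h. Nv.T1.9909.1 was 105 CPM and Nv.T1.65339.1 412 CPM in embryo 82, which had 104329 counts. Nv.T1.12622.2 was 447 CPM in embryo 85, where the next embryo of 60 to 66 h had 187 CPM, and Nv.T1.22135.1 was 59.3 CPM there.

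Nv.T1.22135.1, which rose from 24 to 42 h, was also far from its bin in embryo 45 at 80.1 CPM, in embryo 61 at 132 CPM and in embryo 122 at 77.1 CPM. These embryos had 612056, 296562 and 207532 counts. Nv.T1.8370.2 was 125 CPM in embryo 61 as well. Nv.T1.65339.1 was 246 CPM in embryo 119 and 292 CPM in embryo 107, where the next embryos of those bins had 89.9 and 99.9 CPM. Nv.T1.2286.1 was 42.7 CPM in embryo 64. Nv.T1.39350.1 was 32.2 CPM in embryo 54, 6.85 CPM in embryo 120, where the other 3 embryos of its bin had no count, and 49.9 CPM in embryo 107. Nv.T1.47274.1 was 315 CPM in embryo 96, which had 69854 counts, and Nv.T1.12573.1 was 486 CPM in embryo 84. The part of depth in these values was not tested.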

How the results depend on the processing

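The rule took 60 models with limits of 1 and 20 CPM, all of them members, and 94 with means in place of medians, 68 of them members. With spike-in scaling 306 models passed before the limit of 200, and in the other 5 alternatives 158 to 215; of those taken in these 6, 145 to 173 were members. Members called from 24 to 30 h to 30 to 36 h numbered 0 with spike-in scaling, 4 with DESeq2 (2.48 percent, all models 2.70 percent), 2 with no filter (1.14 and 0.37 percent), 0 with 500000 counts required, and 0 to 3 without 1 embryo. For the trend from 24 to 42 h they numbered 7 with DESeq2 (4.22 and 6.80 percent), 1 with 500000 counts required (0.58 and 3.12 percent) and 1 to 10 without 1 embryo; with spike-in scaling 3 were called, 1 higher and 2 lower. For 39 to 72 h they numbered 8 with 500000 counts required (4.62 and 0.65 percent), which are not 8 independent calls. Between blocks Nv.T1.10698.1 was the 1 member called with spike-in scaling (0.82 and 0.26 percent) and with DESeq2 (0.82 and 0.79 percent). It was also the 1 called with no filter (0.57 and 0.40 percent). Over all pairs to 48 h 3 members were called (1.71 and 2.44 percent), and no pair was left out of that fit. Leaving out each of the 4 pairs before 42 h gave 0, as did the main fit of those pairs. The step from 30 to 36 h to 36 to 42 h gave 0 in every fit. The slope of Nv.T1.62851.1 was -0.095 with spike-in scaling in place of 0.61. The cause of these shifts was not tested. Members held at 50 percent or more stayed within 1.5-fold in each bin under 4 alternatives chosen after seeing the data, for example 136 to 157 at 36 to 42 h. Replicate numbers only follow accession order and pair no embryos. The comparison of embryo numbers was paired by equal label time, and without that block 0 members were called. Depth limits the scarce members: in the shallowest embryo 3 counts equal 51.1 CPM.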
